A study of Mus musculus with 12 samples.

Results

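The transcripts of 10 phosphatases that act on MAP kinases (Dusp1, Dusp2, Dusp4, Dusp5, Dusp6, Dusp7, Dusp8, Dusp10, Dusp14 and Dusp16) were followed through inhibition of Met, of the FGF receptors, or of both. The 10 members were taken by gene symbol from the 55573 genes of the deposited count table, and all 10 were among the 13836 genes expressed highly enough to be tested. The RNA came from tumourspheres of A1005, A1129 and A1471, spindloid cell lines each derived from a separate mammary tumour of MMTV-Metmt;Trp53fl/+;Cre mice, in which the MMTV promoter drives an activated Met transgene in mammary epithelium and Cre deletes a conditional allele of Trp53. All 4 groups therefore carried the transgene and the Trp53 deletion, and no library came from cells without them. The paper reports that the endogenous Met locus is amplified in this model, and it describes retained transgene expression for non-spindloid lines. How much of the Met in these spindloid lines came from the transgene was not tested. Spheres were kept for 24 h in the vehicle DMSO, in the Met kinase inhibitor Crizotinib, in the FGF receptor kinase inhibitor PD173074, or in both inhibitors (the combination). Each treatment had 1 library from each of the 3 lines (n = 3), so the lines are the replicates and each line is paired with itself across treatments.

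MAP kinases are switched on by phosphorylation of a threonine and a tyrosine in the activation loop, and dual specificity phosphatases remove both phosphates. Several of these enzymes are transcribed in response to the kinase that they switch off, which makes a negative feedback loop, and Dusp6 is widely used as a transcriptional readout of ERK signalling below receptor tyrosine kinases. Dusp6 and Dusp7 are cytoplasmic and Dusp5 is nuclear, and all of them prefer ERK. Dusp8, Dusp10 and Dusp16 prefer the stress kinases JNK and p38. Dusp1, Dusp2 and Dusp4 are inducible nuclear enzymes of broader specificity, and Dusp14 is a small atypical member that lacks the kinase-binding domain of the others.

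The libraries held 13031492 to 17750476 counts, and no 2 of them agreed within sampling noise. Of the epithelial keratins, Krt5 had no count in any library and Krt14 at most 11, while Krt8 had 17 to 611 counts and Krt18 53 to 748. The 6 epithelial markers together summed to 7.32 to 52.3 CPM (counts scaled to a common library size), against 2455 to 8484 CPM for 6 mesenchymal markers. Most of the mesenchymal sum was Vim and Fn1, and Cdh2, also on that list, had at most 6 counts. The labelled breast tumour tissue was thus represented by cells with little epithelial RNA. A1005 stood apart in the immune markers, with 174 to 339 counts of Ptprc (CD45) in its 4 libraries against 0 to 2 in those of the other lines, whereas the T cell marker Cd3e had at most 2 counts and the macrophage marker Adgre1 at most 1 count anywhere. In bulk RNA, fewer cells of a type and less RNA per cell cannot be told apart.

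With DMSO, the members were not expressed at like levels. On a scale of CPM per kb of exon, which allows genes to be compared, Dusp6 had the highest level, 58.3 ± 18.1 (SD, n = 3), followed by Dusp4 (45.5 ± 8.54) and Dusp7 (27.9 ± 0.888). Dusp14 (11.8 ± 5.53), Dusp5 (10.4 ± 1.17), Dusp1 (7.63 ± 7.38), Dusp2 (5.90 ± 1.97) and Dusp16 (5.34 ± 0.877) formed a middle range in which each neighbour in the order overlapped the next. Dusp10 (3.74 ± 0.287) and Dusp8 (0.820 ± 0.378) had the lowest means and did not overlap each other or Dusp16. Dusp10 did lie within the wide range of Dusp1. Dusp6 and Dusp4 overlapped, while Dusp4 and Dusp7, and Dusp7 and Dusp14, did not. Dusp7 was the steadiest of the 3 highest members between lines, and Dusp1 the most uneven of all 10, with 16.1 in the highest line and 2.46 in the lowest.

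With the combination the order of the means was different. Dusp1 was then highest with 24.5 ± 14.3 CPM per kb, ahead of Dusp7 (17.6 ± 5.04) and Dusp16 (9.09 ± 4.49), and Dusp6 had moved from rank 1 to rank 7 with 1.78 ± 1.10. Each neighbour in the order with the combination overlapped the next, since the lines spread widely. With the length of the longest coding transcript in place of all exons, the rank of every member with the combination was the same, and with DMSO the pairs Dusp5 and Dusp1, and Dusp2 and Dusp16, each changed places.

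Promoter sequence is shown for 4 members that differ in their response. Dusp6 and Dusp5 were lower with the combination. Dusp1 was higher in every line. With all 3 lines in the fit, edgeR called Dusp1 only with a block for the line, and it called Dusp8 neither unpaired nor with the block. Sequences are from RefSeq on GRCm38.p6, in the direction of transcription, and 9 of the 10 members had an entry (all but Dusp4). Of the 250 bases before the RefSeq start, those that GENCODE counts as exon of the same gene were left out. The stretches of Dusp1 and Dusp8 still lie within the GENCODE span of their own gene, which begins further upstream. The stretches are Dusp6 at chr10:99262981-99263230 (plus strand), Dusp5 at chr19:53528895-53529108 (plus strand), Dusp1 at chr17:26508520-26508722 (minus strand) and Dusp8 at chr7:142095285-142095534 (minus strand). Capitals mark any match, on either strand, to the cyclic AMP response element TGACGTCA, its shortened form TGACG, the AP-1 site TGANTCA, the Ets site CCGGAA, the E-box CACGTG or the serum response element core known as the CArG box.
Dusp6: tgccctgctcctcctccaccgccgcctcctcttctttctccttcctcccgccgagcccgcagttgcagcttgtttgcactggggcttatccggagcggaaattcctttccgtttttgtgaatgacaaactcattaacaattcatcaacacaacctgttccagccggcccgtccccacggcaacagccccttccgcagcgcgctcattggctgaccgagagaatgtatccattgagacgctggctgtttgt
Dusp5: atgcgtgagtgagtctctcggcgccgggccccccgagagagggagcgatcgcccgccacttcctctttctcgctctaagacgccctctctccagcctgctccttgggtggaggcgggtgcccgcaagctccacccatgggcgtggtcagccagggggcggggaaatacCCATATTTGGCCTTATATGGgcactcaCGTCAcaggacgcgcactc
Dusp1: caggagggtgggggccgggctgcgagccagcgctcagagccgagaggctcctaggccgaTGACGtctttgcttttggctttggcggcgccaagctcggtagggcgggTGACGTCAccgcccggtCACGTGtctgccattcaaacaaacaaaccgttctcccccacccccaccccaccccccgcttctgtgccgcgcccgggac
Dusp8: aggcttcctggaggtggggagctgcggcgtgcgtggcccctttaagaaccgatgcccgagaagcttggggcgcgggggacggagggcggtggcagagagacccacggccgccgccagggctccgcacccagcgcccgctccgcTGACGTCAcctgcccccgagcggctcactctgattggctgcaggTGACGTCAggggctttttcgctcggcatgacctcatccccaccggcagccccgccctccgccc
Dusp5 held 2 adjoining CArG boxes, 82 and 72 bases before the start, and 1 shortened element. A CArG box was present in 1.47% of all 32851 mouse promoters of this length and in no other member. The full response element, found in 1.55% of promoters, was present in Dusp1 (143 bases before the start) and 2 times in Dusp8 (107 and 63 bases), and each full element also contains the shortened form, which 17.8% of promoters hold. Dusp1 also held an E-box, as did Dusp2 (6.02% of promoters). Dusp14 held the Ets letters (3952 of the 32851 promoters), and no member held the AP-1 letters (6.75%). Dusp6, Dusp7 and Dusp10 held none of the 6 motifs in this window. These matches describe the letters of the window and not the binding of a factor.

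The combination lowered the ERK phosphatases Dusp5 and Dusp6 and the nuclear phosphatases Dusp2 and Dusp4, by 6.01 to 32.6 times, and each of them was lower in all 3 lines. Against DMSO, 4 of the 10 members were lower and 0 were higher at an adjusted p under 0.05 (edgeR's quasi-likelihood test, unpaired), where 8.28% of all tested genes were lower and 6.1% higher. DESeq2 and limma-voom, also unpaired, each called 5 members lower (Dusp7 was added), where they called 1598 and 1112 genes lower. In the fit that blocks on the line, the same 5 members fell and 3 rose (Dusp1, Dusp10 and Dusp16), against 26.2% and 28.6% of all genes. The median log2 fold change of the members was -0.58, and that of all tested genes was 0.02. Of the members above DMSO, 2 had an unadjusted p under 0.05 in the unpaired fit, where 28.9% of all tested genes did in either direction. Limma-voom called 0 of them, where it called 819 of all genes higher. DESeq2 called 1 (Dusp10), where it called 1434 genes higher.

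**Figure D1:**
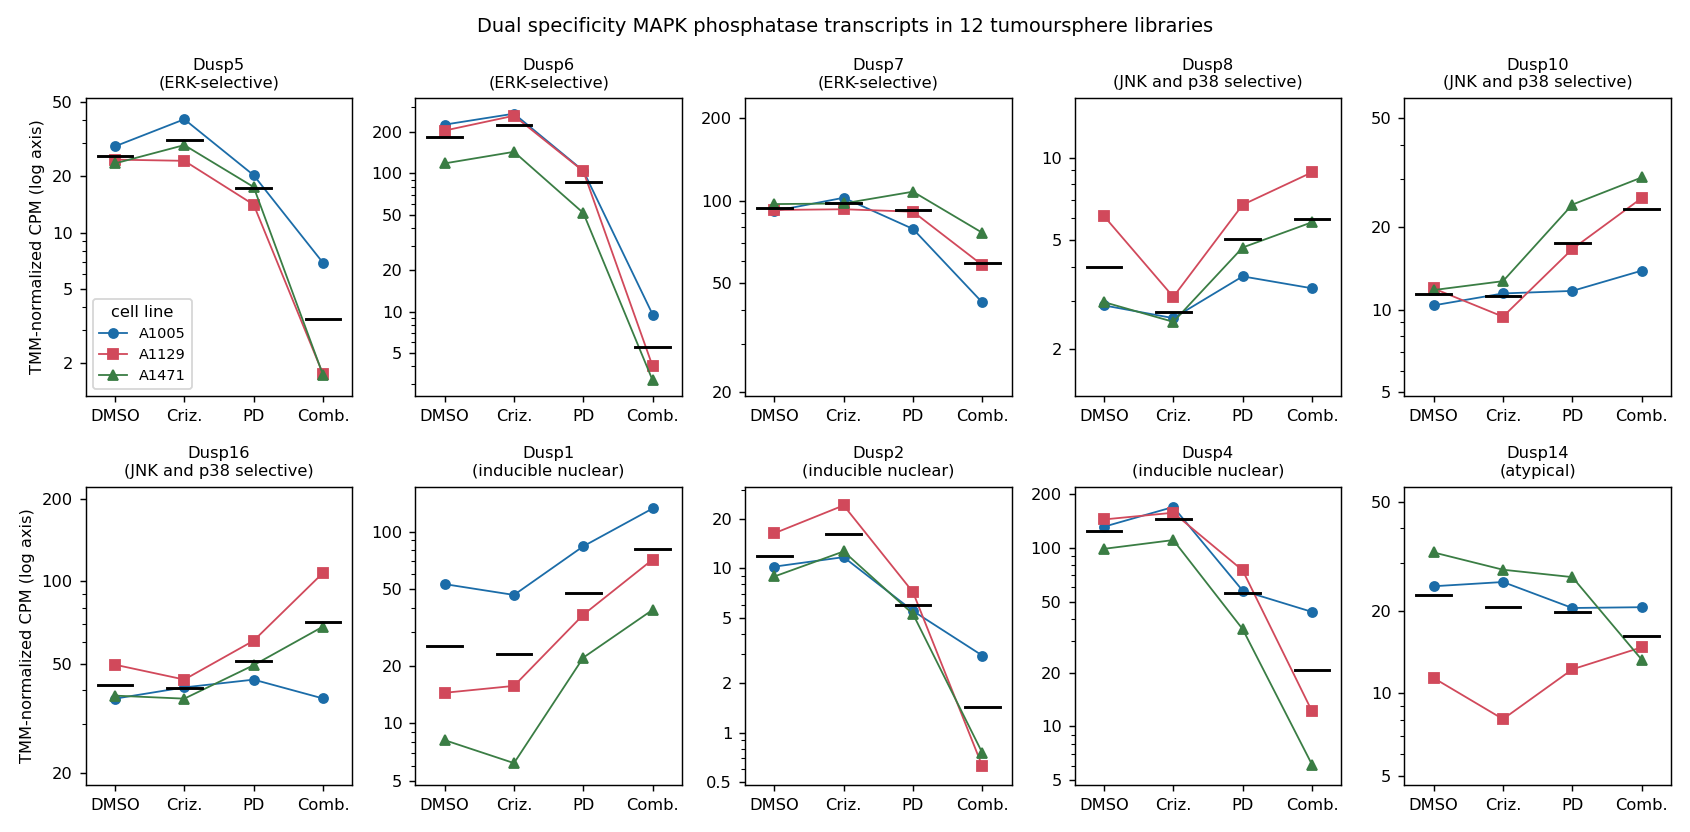
TMM-normalized CPM of each member (log axis) with DMSO, Crizotinib (Criz.), PD173074 (PD) and the combination (Comb.), with 1 point per library, lines joining the libraries of a cell line and a black bar at the mean of 3 lines. Dusp6 dropped from 118 to 225 CPM with DMSO to 3.17 to 9.51 CPM with the combination, while Dusp1 ran upward within each line although the groups overlapped.

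Dusp6, the cytoplasmic ERK phosphatase, showed the largest change among the members. It had 225, 204 and 118 CPM with DMSO in A1005, A1129 and A1471, and 9.51, 4.01 and 3.17 CPM with the combination. No library overlapped between the groups, and even the lowest line with DMSO was above the highest with the combination by a wide margin. Dusp6 fell by 5.03 on the log2 scale (SE 0.54), 32.6-fold, at an adjusted p of 0.000486 (edgeR). In the order of log2 fold changes over all tested genes it ranked 18 from the lowest. The gene lies at chr10:99263231-99267489 (GRCm38) with no annotated gene overlapping it.

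Dusp5, the nuclear and inducible ERK phosphatase, had 28.9, 24.5 and 23.4 CPM with DMSO and 6.89, 1.76 and 1.74 CPM under both inhibitors (order A1005, A1129, A1471). The groups did not overlap, and A1005 kept the most Dusp5. Dusp5 fell by 2.88 (log2, SE 0.52, 7.36-fold, adjusted p = 0.00608, edgeR). An antisense gene, AC137853.2, overlaps Dusp5, and because it is not stated whether the counting used strand, reads of the 2 genes cannot be told apart.

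Dusp7, the close relative of Dusp6, moved least of the ERK-selective members. It had 91.7, 92.5 and 97.2 CPM with DMSO and 42.5, 58.2 and 76.4 CPM with the combination, so the groups did not overlap and A1005 was lowest. The log2 fold change of -0.67 (SE 0.20) missed the threshold in the unpaired edgeR fit (adjusted p = 0.0507). It passed in unpaired DESeq2 (-0.64, adjusted p = 0.0189) and limma-voom (-0.72, adjusted p = 0.0423), and in edgeR with the block (-0.69, adjusted p = 0.00282). Of the 13 alternatives tried, Dusp7 passed in 6, and its highest adjusted p was 0.339 (edgeR, DESeq2 or limma-voom). The unadjusted intervals of Dusp6 (-6.23 to -3.83) and Dusp7 (-1.11 to -0.22) did not touch.

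Of the inducible nuclear members, Dusp2 and Dusp4 fell and Dusp1 did not. Dusp2, known best from activated leukocytes, had 10.2, 16.3 and 8.91 CPM with DMSO in A1005, A1129 and A1471 and 2.95, 0.627 and 0.754 CPM with the combination, which in A1129 and A1471 rested on 10 counts each. The groups did not overlap. Dusp2 fell by 3.02 (log2, SE 0.61, 8.11-fold, adjusted p = 0.0104, edgeR). Dusp4 had 131, 144 and 98.6 CPM with DMSO and 43.8, 12.2 and 6.11 CPM with the combination, again with no overlap and with A1005 highest. Dusp4 fell by 2.59 (log2, SE 0.62, 6.01-fold, adjusted p = 0.0222, edgeR).

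The calls of Dusp2, Dusp4 and Dusp5 needed both A1129 and A1471 in the unpaired fit. Without A1129 their adjusted p-values were 0.123, 0.247 and 0.104, and without A1471 they were 0.154, 0.13 and 0.142 (edgeR). Of all tested genes, 324 were called without A1129 and 120 without A1471. Without A1005 the 3 calls held and the changes were larger, at -4.16 for Dusp2, -3.72 for Dusp4 and -3.76 for Dusp5, whereas without A1129 that of Dusp2 was -2.36. Dusp6 passed the threshold in every alternative tried.

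Dusp1, which inactivates p38 and JNK as well as ERK, went the other way. It had 53.2, 14.4 and 8.15 CPM with DMSO in A1005, A1129 and A1471 and 132, 71.6 and 39.1 CPM with the combination. Every line was higher, by 1.31, 2.30 and 2.24 on the log2 scale, but A1005 with DMSO was above A1471 with the combination, so the groups overlapped. The unpaired log2 fold change was 1.68 (SE 0.90, adjusted p = 0.252, edgeR), and without A1005 it was 2.30 (adjusted p = 0.0473). In the line-blocked fit Dusp1 rose by 1.94 (SE 0.21, adjusted p = 6.05e-05, edgeR). In GENCODE the longest form of Dusp1 spans Ergic1 on the other strand, so its counts carry the same uncertainty about strand as those of Dusp5. This holds as well for Dusp8, Dusp10 and Dusp16, which overlap Gm32786, 1700056E22Rik and Gm36328 on the other strand.

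The phosphatases of the stress kinases had positive fold changes of smaller size, and none passed the unpaired test. Dusp10 had 10.4, 11.97 and 11.8 CPM with DMSO and 13.9, 25.6 and 30.4 CPM under both inhibitors (order A1005, A1129, A1471), with no overlap between the groups. Its log2 fold change was 1.03 (SE 0.33, adjusted p = 0.0665, edgeR), and with the block Dusp10 rose by 0.98 (adjusted p = 0.00397). Without A1005 it passed the unpaired test as well (1.25, adjusted p = 0.0372). It was the 1 member of 10 whose libraries with the combination all lay above those with DMSO, as 13.8% of all tested genes did, whereas 5 members (Dusp2, Dusp4, Dusp5, Dusp6 and Dusp7) lay wholly below, as 16.1% of all genes did.

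Dusp16 depended on the line. It had 37.2, 49.5 and 38.2 CPM with DMSO and 37.3, 107 and 68.2 CPM with the combination, so A1005 was level and the other lines were higher. Its log2 fold change was 0.77 (SE 0.32, adjusted p = 0.143, edgeR) and 0.70 with the block (adjusted p = 0.0181). In the line-blocked fit the call of Dusp16 was lost without A1129 (adjusted p = 0.169) and without A1471 (adjusted p = 0.159), and that of Dusp10 without A1471 (adjusted p = 0.0664). Dusp8 was the scarcest member, with 37 to 93 counts per library with DMSO and 60 to 141 with the combination, and its groups overlapped (log2 fold change 0.58, SE 0.44, adjusted p = 0.437, edgeR). With the block it was 0.57 (adjusted p = 0.0576). The atypical Dusp14 had no common direction, with changes of -0.25, 0.37 and -1.29 in A1005, A1129 and A1471 (fitted log2 fold change -0.50, 95% interval -1.64 to 0.65, adjusted p = 0.585).

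**Figure D2:**
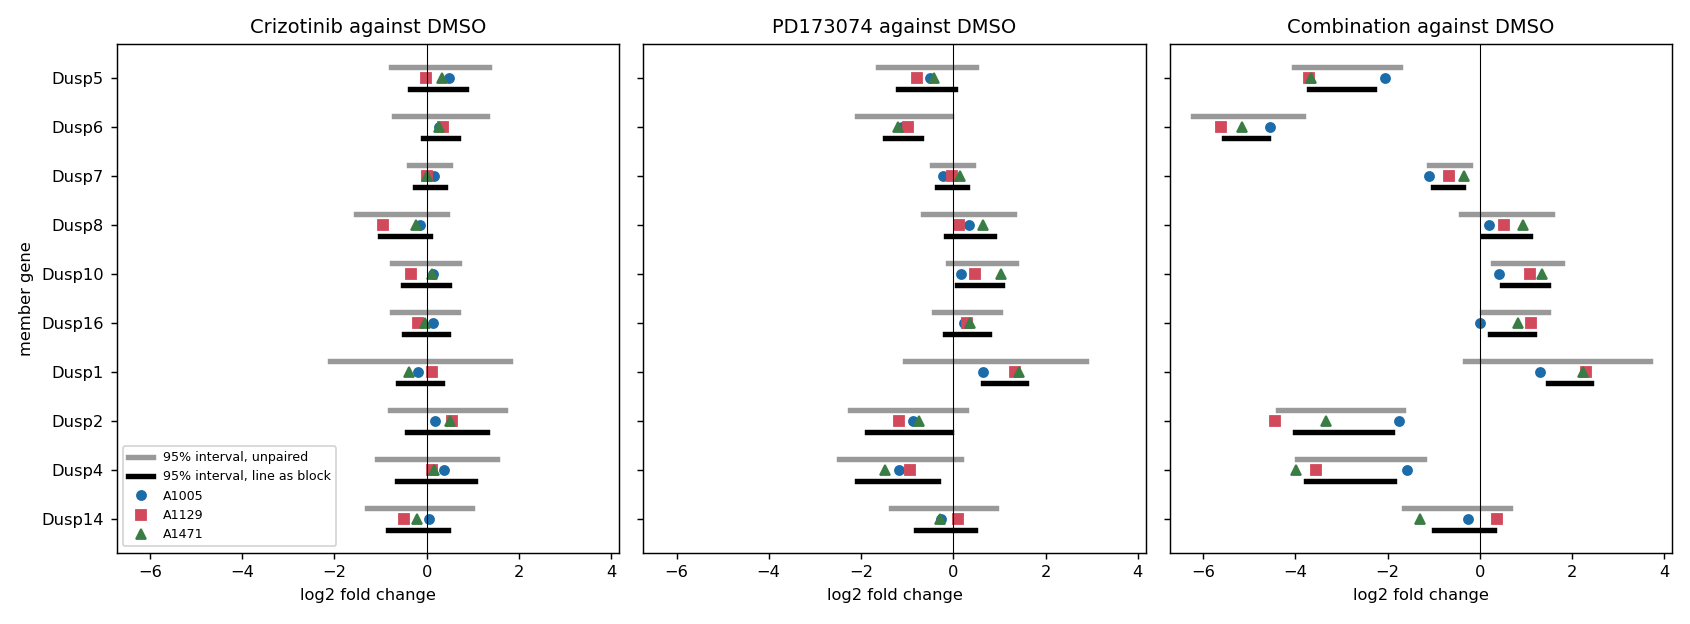
Log2 fold change of each member against DMSO with Crizotinib, PD173074 and the combination. Points are the 3 cell lines, and bars are 95% intervals from the unpaired fit (grey) and from the line-blocked fit (black). The intervals of Dusp2, Dusp4, Dusp5, Dusp6 and Dusp7 lay below 0 with the combination in both fits, and those of Dusp10 and Dusp16 above it, while with Crizotinib all intervals crossed 0.

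Seen as classes, the ERK-selective members took a smaller share of the phosphatase RNA with the combination. Dusp5, Dusp6 and Dusp7 together made up 54.3% ± 1.65 (SD, n = 3) of the summed CPM per kb of all 10 members with DMSO, 56.2% ± 1.77 with Crizotinib, 50.5% ± 2.09 with PD173074 and 27.2% ± 9.24 with the combination. With the combination the share stood at 19.2% for A1005, 25.04% for A1129 and 37.3% for A1471, all below the 52.4% of the lowest library with DMSO. The remainder of the ERK-selective level was then mostly Dusp7.

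Dusp8, Dusp10 and Dusp16 together made up 5.69% ± 1.16 with DMSO, 4.82% ± 1.01 with Crizotinib, 11.1% ± 3.37 with PD173074 and 23.9% ± 11.7 with the combination. In A1005 the share with the combination was 10.4%, against 31.0% in A1129 and 30.4% in A1471, and all of these were above the 6.47% of the highest library with DMSO. The summed level of all 10 members went from 177 ± 28.9 CPM per kb with DMSO to 79.8 ± 15.6 with the combination, so shares also grew where a level did not. In level, the stress kinase class had 8.78, 11.5 and 9.39 CPM per kb with DMSO and 10.04, 24.0 and 19.9 under both inhibitors (order A1005, A1129, A1471). The level was thus nearly flat in A1005 and higher in the other lines. The class comparison is given as values, without a test.

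**Figure D3:**
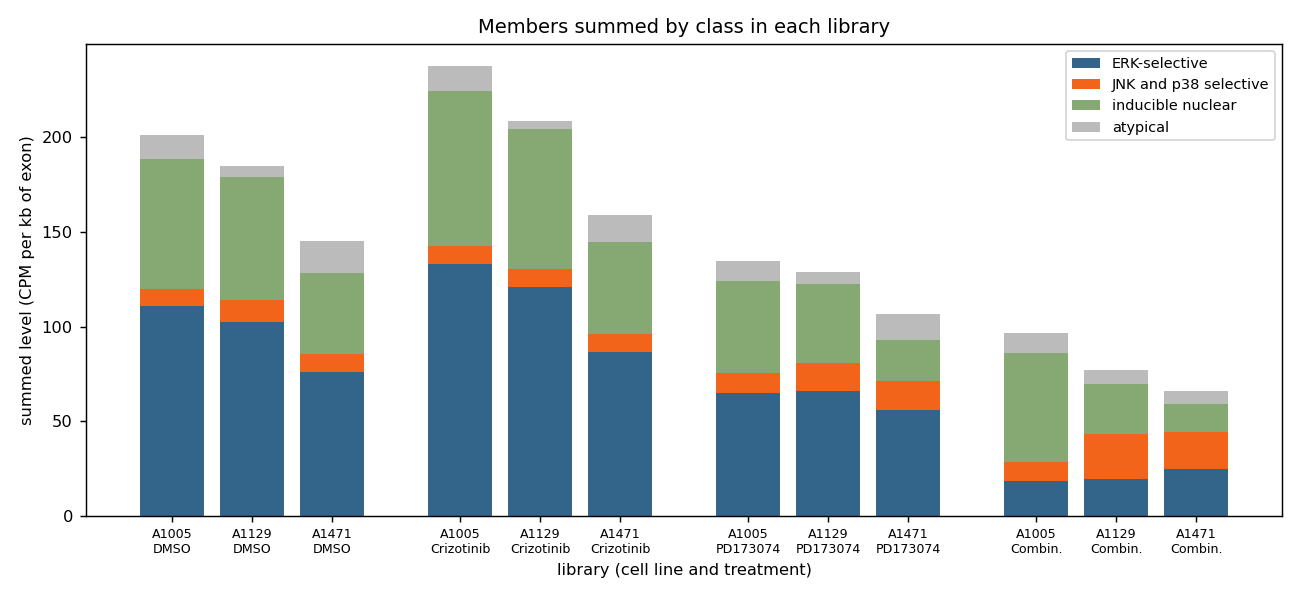
Summed level of the 10 members in each library, in CPM per kb of exon, stacked by class (ERK-selective, JNK and p38 selective, inducible nuclear, atypical). The ERK-selective block was 76.1 to 111 CPM per kb with DMSO and 18.5 to 24.5 with the combination, and with the combination the inducible nuclear block was the largest in A1005 (57.4, mainly Dusp1) and in A1129 (26.4), and the ERK-selective block in A1471 (24.5).

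Crizotinib alone left the 10 members near their level with DMSO. No member was called by edgeR (unpaired or with the block), DESeq2 or limma-voom. Of all tested genes edgeR called 0% in either fit, limma-voom called 0 genes and DESeq2 called 1. None of the members had an unadjusted p under 0.05 in either edgeR fit, as 0.13% of genes did unpaired and 1.86% with the block. Dusp6 had 270.5, 261 and 143 CPM, which was above DMSO within each line by 0.26, 0.36 and 0.28 on the log2 scale. Its fitted log2 fold change was 0.30 (95% interval -0.70 to 1.31, adjusted p = 1, edgeR). All 10 members overlapped between the groups, where 0.853% of genes lay wholly lower and 0.838% wholly higher. The fitted log2 fold changes of the 10 members ran from -0.54 (Dusp8) to 0.45 (Dusp2), with a median of 0.02 and a median over all tested genes of -0.00083.

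PD173074 alone lowered Dusp6 and raised Dusp1 when the fit blocked on the line. In the unpaired fit no member was called, as 0% of all genes were, and 1 member (Dusp6) had an unadjusted p under 0.05, as did 2.22% of genes. DESeq2 and limma-voom also called no member. With the block 2 members were called, 1 in each direction, where 0.52% of genes were lower and 1.62% higher.

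Dusp6 had 104, 104 and 51.7 CPM with PD173074 in A1005, A1129 and A1471, against 225, 204 and 118 CPM with DMSO, and the groups did not overlap. The drop was of like size in the 3 lines (-1.11, -0.98 and -1.19 on the log2 scale), and with the block Dusp6 fell by 1.09 (SE 0.18, adjusted p = 0.0152, edgeR). Dusp1 had 83.9, 36.9 and 22 CPM, higher than DMSO in every line by 0.66 to 1.42, and with the block it rose by 1.12 (SE 0.21, adjusted p = 0.0265, edgeR), although the groups overlapped. Without A1471 the blocked fit called no member, among 4 genes called in all, and without A1129 it called Dusp6 alone, among 131 genes. Without A1005 it called 3, among 59 genes, with Dusp4 added (-1.20, adjusted p = 0.0379).

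Dusp2, Dusp4 and Dusp5 also had every PD173074 library below every DMSO library, which with Dusp6 makes 4 members where 3.07% of all tested genes did so. Their blocked log2 fold changes were -0.96 (adjusted p = 0.291), -1.21 (adjusted p = 0.167) and -0.59 (adjusted p = 0.342), none past the threshold. Dusp7 was level at 78.9, 91.2 and 108 CPM (log2 fold change -0.02, 95% interval -0.46 to 0.42). Among the phosphatases of the stress kinases, Dusp10 had 11.7, 16.7 and 24.2 CPM, with a blocked log2 fold change of 0.57 (adjusted p = 0.244). Dusp8 and Dusp16 were higher in every line, by 0.13 to 0.64, and did not pass the test either.

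Set against Crizotinib alone, the combination lowered all 3 ERK-selective members together with Dusp2 and Dusp4. Dusp2 (-3.47), Dusp4 (-2.81), Dusp5 (-3.17), Dusp6 (-5.33) and Dusp7 (-0.73) were called lower in the unpaired fit, with adjusted p-values from 0.000462 to 0.0391 (edgeR), where 7.78% of genes were lower. In the line-blocked fit the same 5 members were lower, where 26% of genes were, and Dusp1, Dusp8, Dusp10 and Dusp16 were called higher, where 27.4% of genes were, which left Dusp14 as the 1 member not called. Without A1129, or without A1471, the unpaired fit called Dusp6 alone, among 350 and 109 genes called in all. The line-blocked fit then called 6 members, the same 5 lower ones and Dusp1, among 5772 genes without A1129 and 4880 without A1471. Without A1005 the unpaired changes were larger, at -4.71 for Dusp2, -3.86 for Dusp4 and -3.92 for Dusp5. The call of Dusp7 was lost with no filter on low counts (adjusted p = 0.086) and without any 1 of the lines (adjusted p from 0.107 to 0.281).

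Set against PD173074 alone, Dusp6 was lower, with a log2 fold change of -3.95 (SE 0.51, adjusted p = 0.00216) as was Dusp5 with -2.31 (SE 0.50, adjusted p = 0.0293), 2 of the 10 members where 3.93% of all genes were lower (edgeR, unpaired). With the block 5 members were lower, where 20.2% of genes were, and Dusp1 was higher by 0.83 (adjusted p = 0.0103), where 19.6% were. Without A1129 neither Dusp6 (adjusted p = 0.167) nor Dusp5 (adjusted p = 0.339) passed the unpaired test, and without A1471 Dusp5 (adjusted p = 0.332) did not. The line-blocked fit called 2 members without A1129 (Dusp5 and Dusp6), among 2352 genes, and 3 without A1471 (Dusp5, Dusp6 and Dusp7), among 2940 genes. Dusp2 and Dusp4 depended on the line, Dusp2 with changes of -0.87, -3.26 and -2.60 in A1005, A1129 and A1471. Those of Dusp4 were -0.39, -2.61 and -2.49 in the same order, and without A1005 the unpaired fit called both (adjusted p = 0.0275 for Dusp2 and 0.0452 for Dusp4), with Dusp5 at -3.17. The 2 groups overlapped for Dusp4, since A1005 with the combination (43.8 CPM) was above A1471 with PD173074 (35.0 CPM).

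The combination was also compared with the sum of the changes of each inhibitor, all on the log2 scale and against the same DMSO libraries. Dusp6 departed from this sum by -4.25 (SE 0.67, adjusted p = 0.0189, edgeR), and it was the 1 member called of 10, where 0.918% of all genes were called. In A1005, A1129 and A1471 its departures were -3.70, -5.004 and -4.25. With the block 4 members were called, all below the sum. Of all tested genes 16.2% were called in either direction, 1486 below the sum and 755 above it. The 4 members were Dusp6 (-4.28, adjusted p = 3.93e-05), Dusp5 (-2.66, adjusted p = 0.00278), Dusp2 (-2.44, adjusted p = 0.0276) and Dusp7 (-0.73, adjusted p = 0.0395). Dusp4 (-1.81, adjusted p = 0.0538) and Dusp1 (0.97, adjusted p = 0.0507) were just outside. The line-blocked fit called Dusp5 and Dusp6 without A1129, among 496 genes, and Dusp6 alone without A1471 (adjusted p = 0.00557), among 423 genes. Without A1005 it called 6 members, among 1679 genes, with Dusp2 at -3.71 and Dusp5 at -3.31, and Dusp7 did not pass (adjusted p = 0.0738). In the unpaired fit, where 0 genes were called with any line left out, the call of Dusp6 needed all 3 lines, with adjusted p-values of 0.107 without A1005, 0.587 without A1129 and 0.181 without A1471, at departures of -4.75, -3.88 and -4.25.

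**Figure D4:**
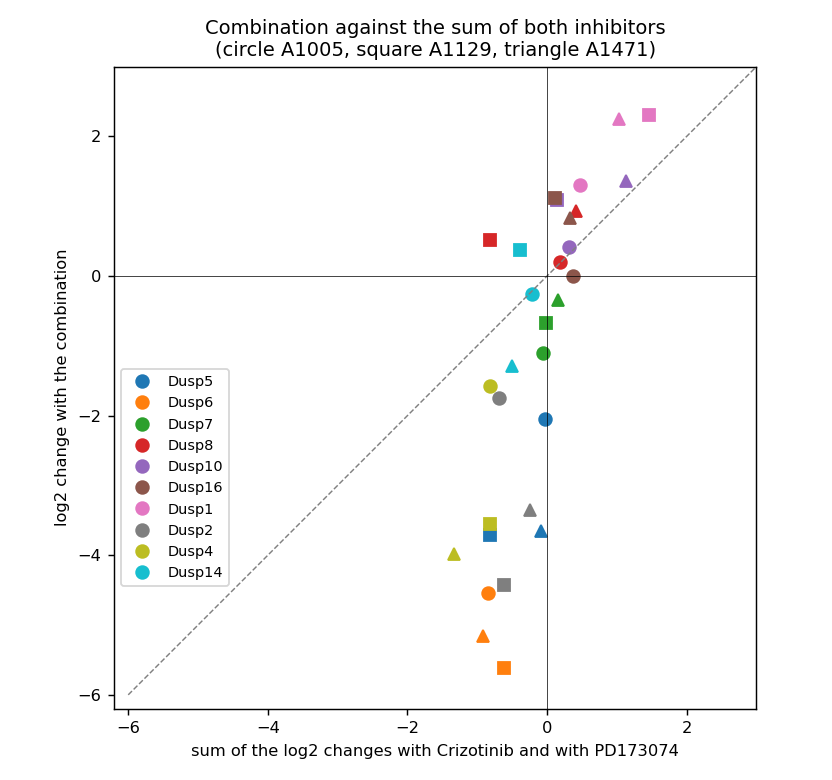
Log2 change with the combination against the sum of the log2 changes with Crizotinib and with PD173074, for each member (colour) in each cell line (symbol). The dashed line marks equality. Dusp6 departed from the line by -3.70 to -5.004. The departures of Dusp8, Dusp10 and Dusp16 ran from -0.36 (Dusp16 in A1005) to 1.34 (Dusp8 in A1129).

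The lines did not respond alike, and A1005 differed most. Its log2 changes with the combination were smaller than in A1129 and A1471 for Dusp2 (-1.75 against -4.43 and -3.35), for Dusp4 (-1.58 against -3.55 and -3.98), for Dusp5 (-2.05 against -3.71 and -3.65), for Dusp6 (-4.55 against -5.62 and -5.16), for Dusp1 (1.31 against 2.30 and 2.24) and for Dusp10 (0.42 against 1.09 and 1.35). Dusp7 was the exception, with -1.11 in A1005 against -0.67 and -0.35. A1005 was also the line with Ptprc counts and with the highest sum of the 4 immune markers, 31.3 to 42.0 CPM against 4.34 to 10.8 CPM in the other lines, where Cd68 (62 to 173 counts) made up nearly all of it. Adgre1 and Cd3e were at or near 0 in every line, and the part of immune RNA in these differences was not tested. With 1 library per line and treatment, a difference between lines in their response has no test, and differences between lines in level were not tested.

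The kinases that the members act on had smaller fold changes with the combination than Dusp2, Dusp4, Dusp5 and Dusp6, though not smaller than Dusp7. Of 9 tested MAP kinases, 0 were called with the combination against DMSO by unpaired edgeR, DESeq2 or limma-voom. Unpaired edgeR called 8.28% of all genes lower and 6.1% higher. In any of these tools 0 of the MAP kinases had an unadjusted p under 0.05, where 28.9% of all genes did in unpaired edgeR. The fitted log2 fold changes of the MAP kinases ran from -0.93 to 0.76. With the block 4 were lower and 2 higher, where 26.2% and 28.6% of all genes were, among them Mapk14 (p38 alpha, -0.33, adjusted p = 0.00926), Mapk8 (JNK1, -0.36, adjusted p = 0.0185) and Mapk3 (ERK1, 0.94, adjusted p = 0.00554). Of the 7 MAP kinase kinases 1 was called lower and 0 higher in the unpaired fit, where 8.28% and 6.1% of all genes were. The 1 called was Map2k3, which activates p38, from 168 ± 27.5 CPM with DMSO to 64.7 ± 13.7 CPM with the combination (-1.38, SE 0.21, adjusted p = 0.00295, edgeR).

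Among 17 other dual specificity and MAP kinase phosphatases, 11 were tested and 1 was called lower and 0 higher by unpaired edgeR, where 8.28% of all genes were lower and 6.1% higher. DESeq2 called 1 lower and 1 higher, where it called 1598 and 1434 of all tested genes, and limma-voom called 0. The line-blocked fit called 3 lower and 3 higher, where 26.2% and 28.6% of genes were. The gene called lower by unpaired edgeR was the tyrosine phosphatase Ptpn5, which acts on ERK and p38 (log2 fold change -4.42, SE 0.90, adjusted p = 0.0111, edgeR). It was scarce, with 26 to 100 counts per library with DMSO and 1 to 7 with the combination. Dusp3 (0.71, adjusted p = 0.0958), Dusp12 (-0.49, adjusted p = 0.117) and Dusp27 (3.07, adjusted p = 0.153) did not pass in unpaired edgeR. With the block all 3 passed, Dusp3 at 0.72 (adjusted p = 0.0131), Dusp12 at -0.50 (adjusted p = 0.0227) and Dusp27 at 3.07 (adjusted p = 0.000376). Dusp9, a cytoplasmic ERK phosphatase like Dusp6 and Dusp7, is no member and was singled out after its values were seen. It had 121 ± 80.3 CPM with DMSO and 35.7 ± 22.5 CPM with the combination (log2 fold change -1.76, adjusted p = 0.249), and with the block it fell by 1.70 (adjusted p = 6.34e-05, edgeR). The median log2 fold change of the 11 genes was -0.03.

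Most of the other transcripts known to follow ERK fell with the combination, as Dusp5 and Dusp6 did. Their list was chosen with earlier results of these data known, so its counts are a description. Of 18 such target and feedback genes, 12 were lower and 0 higher with the combination (edgeR, unpaired, with 1 higher gene at an unadjusted p under 0.05 and 1 called higher by DESeq2), where 8.28% of all genes were lower and 6.1% higher. In the line-blocked fit 14 were lower and 2 higher, where 26.2% and 28.6% of genes were. Their median log2 fold change was -2.51. Those with the smallest p-values were the Ets factors Etv5 (-4.99, adjusted p = 4.3e-05) and Etv4 (-4.74, adjusted p = 0.000384), cyclin D1 (Ccnd1, -5.29, adjusted p = 4.59e-05) and the AP-1 subunit Fosl1 (-3.28, adjusted p = 0.000544). The 16 immediate early genes, which respond to stress as well as to growth factors, had a median of 0.08, with 1 called lower (Egr3, -4.01, adjusted p = 0.0103) and 1 higher (Jund, 1.98, adjusted p = 0.00421) by unpaired edgeR, against the same 8.28% and 6.1% of all genes. Limma-voom also called 1 lower and 1 higher, where it called 1112 and 819 of all tested genes. DESeq2 called 1 lower and 3 higher, where it called 1598 and 1434 genes. The line-blocked fit called 3 lower and 5 higher, where 26.2% and 28.6% of all genes were. Atf3 (1.604, adjusted p = 0.058) and Klf2 (2.43, adjusted p = 0.0918) missed the threshold in unpaired edgeR and passed it with the block, at 1.45 (adjusted p = 0.0159) and 2.14 (adjusted p = 0.00322).

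Across the 12 libraries, with each line centred on its own mean, the members split into those that ran with Dusp6 and those that ran against it. Pearson's r with Dusp6 was 0.985 for Dusp5, 0.961 for Dusp2, 0.949 for Dusp4 and 0.868 for Dusp7, and -0.742 for Dusp8, -0.802 for Dusp16, -0.847 for Dusp10 and -0.910 for Dusp1, with Dusp14 at 0.295. The libraries share treatments and lines and r is given as a description. Over 9224 genes with a mean log2 CPM of at least 3, the non-members most like Dusp6 were the chromatin protein Hmga2 (r = 0.998), Etv5 (0.998), Etv4 (0.998), Ccnd1 (0.997) and the cyclin-dependent kinase subunit Cks1b (0.996). Those most like Dusp1 were the scaffold protein Magi3 (0.992), the sphingosine phosphate transporter Spns2 (0.989), Arhgap28 (0.989), complement C3 (0.989) and Phactr1 (0.989).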

How the data were processed

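Total RNA of 12 tumoursphere libraries was sequenced on a NextSeq500 instrument. The authors deposited unnormalized read counts for each Ensembl gene. Per the labels and the study's methods, reads were aligned with STAR to mm10, and the submitters' processing notes name HTSeq and bcl2fastq. Tool versions, the strand setting and the annotation release are not given in the sources used here. Groups and lines came from the labels.

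Low genes were removed by filterByExpr at a minimum count of 10 and a minimum total of 15, and the rest were normalized by TMM and tested with edgeR 4.0.16 (quasi-likelihood, R 4.3.3) in 1 unpaired fit over 12 libraries, as the study's methods state an unpaired analysis, with Benjamini-Hochberg adjustment over 13836 genes. The tested genes held at least 99.85% of each library's counts. Alternatives were a block for the line, DESeq2 1.42.0, limma-voom (limma 3.58.1), DESeq2's size factors, other filters, only the libraries compared, a log2 fold change of at least 1.5 and leaving out each line. Leaving out lines in the blocked fit was added after the values were seen. The labels give the line of each library, which is the source of the pairing, and libraries of the same line deviated together from their group means (mean r = 0.871 over 18 pairs, lowest 0.766).

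Changes per line are differences of log2 CPM (prior count 2). Levels per kb used exon lengths from GENCODE M21, which holds 55394 of the 55573 genes. The code was tested on simulated counts. The 10 members were named in every comparison, and from other lists up to 4 genes with the smallest p in the combination against DMSO. The values of 1 such gene are not reported here. Likeness to Dusp6 and Dusp1 was Pearson's r of line-centred log2 CPM over 12 libraries, of which the 5 highest non-members are named. Members, lists and classes were chosen with earlier results of these data known. P-values rest on 3 lines, each from a separate tumour. Molecular identifiers are not mentioned in the sources used here, and counts carry counting error as well as the spread between lines.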

Additional observations from a re-analysis of the deposited data

Results flagged for a closer look

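The response of Dusp6 to either inhibitor differed with the presence of the other, by a test of the interaction itself. The combination lay -4.25 (log2, SE 0.67) from the sum of both single changes, at an adjusted p of 0.0189 (edgeR, unpaired) and 3.93e-05 in the line-blocked fit, and lay below the sum in 3 of 3 lines. No other member passed this test in the unpaired edgeR fit, while DESeq2 and limma-voom, also unpaired, each called more members than edgeR did. The unpaired edgeR call of Dusp6 was lost with any line left out (highest adjusted p 0.587).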

How the results depend on the processing

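The number of members called depended on how the lines were treated. Against DMSO the combination called 4 members in the unpaired fit, 8 with the cell line as a replicate block and 1 with only the libraries compared. Leaving out a line gave 1 to 9. For PD173074 these were 0 unpaired and 2 with the block (0 to 3 with a line left out), and for Crizotinib 0 throughout. Against Crizotinib the combination called 5, 9 with the block, 2 with only the libraries compared and 1 to 9 with a line left out. Against PD173074 it called 2, 6 with the block, 4 with DESeq2, 1 with only the libraries compared and 0 to 7 with a line left out. The departure from additivity called 1, 4 with the block, 2 with DESeq2, 2 with limma-voom and 0 to 6 with a line left out. Fits with a line left out, or with only the libraries compared, hold fewer libraries. For the combination against DMSO the unpaired fit called 2021 genes without A1005, 324 without A1129 and 120 without A1471. The cause of these differences was not tested. With a line left out, in either fit, the genes called in all ran from 120 to 6823 against DMSO, from 109 to 6545 against Crizotinib, from 60 to 4734 against PD173074 and from 0 to 1679 for the departure from additivity, and from 0 to 131 for PD173074 against DMSO. Against Crizotinib 616 genes were called with only the libraries compared. Against PD173074 660 genes were called unpaired, 5506 with the block, 1556 with DESeq2 and 117 with only the libraries compared. The departure from additivity was called for 127 genes unpaired, 2241 with the block, 459 with DESeq2 and 135 with limma-voom. Of all tested genes, the combination against DMSO called 1990 unpaired, 7578 with the block, 3032 with DESeq2, 1160 with no filter on low counts, 594 with only the libraries compared and 794 with a log2 fold change of at least 1.5.

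Dusp6 kept its direction and its call against DMSO under all 13 alternatives, with log2 fold changes from -5.47 to -4.75 and a highest adjusted p of 0.0469 (edgeR, DESeq2 or limma-voom). The values that changed sign were small and none was called. With a line left out, in either fit, Dusp7 with PD173074 ran from -0.10 to 0.076, Dusp10 with Crizotinib from -0.12 to 0.13 and Dusp16 with Crizotinib from -0.11 to 0.052. Dusp14 likewise ran from -0.75 to 0.084 with the combination against DMSO, from -0.65 to 0.26 against Crizotinib, from -0.47 to 0.15 against PD173074 and from -0.38 to 0.33 in its departure from additivity, which was 0.013 with the replicate block. With 10 counts of Dusp2 per library in A1129 and A1471 with the combination, depth limits the size of its change.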
